A study of Mus musculus with 5 samples.

Results

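Glycolysis and hypoxia response genes were followed in CD11b+Gr1+ myeloid cells sorted from mouse lung, with and without a tumour growing at a distant site. The set was listed by gene name and holds 36 genes in 5 roles: enzymes of glycolysis, regulators of its flux, glucose and lactate transporters, subunits and regulators of the hypoxia-inducible factors (HIF), and HIF targets. Of these, 29 had a probe set annotated to them alone, among 14807 genes so represented by 14939 of the 16661 probe sets. Hk3, Gpi1, Gapdh, Pgk1, Pgam1, Eno1 and Ldha had none and are not analysed here, so the later steps of glycolysis were covered thinly.

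Mice in 2 groups were compared, and the sample titles call the control mice wild type. The tumour-challenged mice had received 5000000 LLC-RFP cells (Lewis lung carcinoma, a mouse tumour line, carrying a red fluorescent protein) under the skin and were examined at 9 days. Control mice had no tumour. In both groups about 100000 cells positive for CD11b and Gr1 were sorted from the lungs for each RNA sample, and 2 tumour-challenged and 3 control samples were each measured on 1 array. No strain, age or number of mice for a sample is stated in the sources used here, so the p-values below measure the spread between these samples, which may in part be technical. CD11b and Gr1 together mark neutrophils and inflammatory monocytes, so each sample is a mixture, and fewer cells of a type cannot be told apart from less RNA per cell.

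Glycolysis turns glucose into pyruvate and, when pyruvate is reduced, into lactate, and neutrophils are known to draw most of their energy from it. HIF1 and HIF2 are transcription factors whose alpha subunits (Hif1a, Epas1) are hydroxylated by oxygen-dependent prolyl hydroxylases (Egln1, Egln3) and then marked for destruction by the von Hippel-Lindau protein (Vhl). When oxygen is short the subunits escape this and raise transcription of glucose transporters, glycolytic enzymes and genes such as Bnip3 and Adm, by binding a short DNA element whose core reads ACGTG or GCGTG. Because HIF alpha subunits are controlled chiefly through their stability, their mRNA is not a measure of HIF activity.

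That core was searched for in the 250 bases before the annotated starts of the listed genes (RefSeq, build GRCm38.p6), on both strands, so that CACGT and CACGC count as matches too. The palindrome CACGTG, the E-box bound by MYC and USF proteins, contains the core on both strands and was counted as 1 match. Of 45 promoters of 32 listed genes, 36 held at least 1 core (80.0%), against 38.6% of 32851 mouse promoters and 54.2% of the 9659 promoters whose genes were above background on these arrays. A match describes the letters only. The 3 promoters below belong to genes whose tumour-challenged values lay above all control values and which were above background, and they show how much the number of cores varied among such genes. Capitals mark the core and, in Bnip3, the palindrome around it.

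Bnip3 (chr7:138909507-138909756, minus strand, 4 cores): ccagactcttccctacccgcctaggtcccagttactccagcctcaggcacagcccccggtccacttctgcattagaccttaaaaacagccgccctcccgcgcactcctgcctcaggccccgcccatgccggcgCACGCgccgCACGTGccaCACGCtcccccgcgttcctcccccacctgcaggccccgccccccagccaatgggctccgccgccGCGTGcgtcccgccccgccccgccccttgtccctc
Egln3 (chr12:54203875-54204124, minus strand, 1 core): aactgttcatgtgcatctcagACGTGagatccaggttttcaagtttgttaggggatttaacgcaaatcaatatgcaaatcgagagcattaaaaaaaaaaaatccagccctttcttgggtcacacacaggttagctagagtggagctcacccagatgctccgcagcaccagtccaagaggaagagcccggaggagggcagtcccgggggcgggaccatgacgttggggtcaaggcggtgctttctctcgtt
Tpi1 (chr6:124814159-124814408, minus strand, 0 cores): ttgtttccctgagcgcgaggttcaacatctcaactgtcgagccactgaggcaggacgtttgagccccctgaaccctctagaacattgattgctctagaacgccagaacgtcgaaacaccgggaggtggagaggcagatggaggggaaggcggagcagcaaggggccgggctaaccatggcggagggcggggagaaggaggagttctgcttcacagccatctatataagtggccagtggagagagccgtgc

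Most of the measured genes read somewhat higher in the tumour-challenged samples, and none passed the test. Values are log2 expression values, differences are tumour-challenged minus control, and the test was limma over all probe sets with Benjamini-Hochberg adjustment at 0.05. Of 29 genes, 24 had a positive difference and 5 a negative one, where 57.6% of all probe sets and 63.9% of those above background were positive. The median difference was 0.17 log2, against 0.02 over all probe sets and 0.05 over those above background. Limma called 0 of the 29 (0.0% of all probe sets were called in either direction), and their adjusted p ran from 0.727 to 0.993. At an unadjusted p under 0.05, 1 gene was higher and 0 were lower, where 3.58% and 2.96% of all probe sets were. The tumour-challenged arrays lay above all control arrays for 7 genes (Hk1, Aldoa, Tpi1, Slc2a1, Egln3, Bnip3 and Ddit4), or 6 with each array centred on its median, and below all of them for 1 (Adm). Over all probe sets these shares were 11.2% and 7.83%, and over those above background 14.1% and 7.08%. The submitters' design text sorts out genes whose group means were over 2-fold higher. None of the 29 genes reached that, the largest fold being 1.48, where 0.144% of all probe sets were over 2-fold higher and 0.132% over 2-fold lower.

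The size of this shift depended on single arrays. Control replicate 3 gave the lowest of the 5 values for 18 of the 29 genes, against 36.3% of all probe sets and 43.9% of those above background. Without it the median difference was 0.06, with 18 genes positive where 50.2% of all probe sets were. Tumour-challenged replicate 1 gave the highest value for 13 of the 29 genes, against 36.2% of all probe sets and 48.7% of those above background, and without that array 19 genes were positive (49.3% of all probe sets) with a median of 0.14. Without tumour-challenged replicate 2, 27 genes were positive (59.0% of all probe sets) and the median was 0.26. Array medians over all probe sets lay between 6.77, in control replicate 3, and 6.88, and upper quartiles between 7.90 in that array and 8.23 in tumour-challenged replicate 1. A background level of 6.47 was set from 809 probe sets of odorant, vomeronasal and trace amine receptors, which these cells are not known to use. Both group means lay above it for 24 of the 29 genes and both below it for Pkm, Eno2, Ddit4, P4ha2 and Adm.

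**Figure D1:**
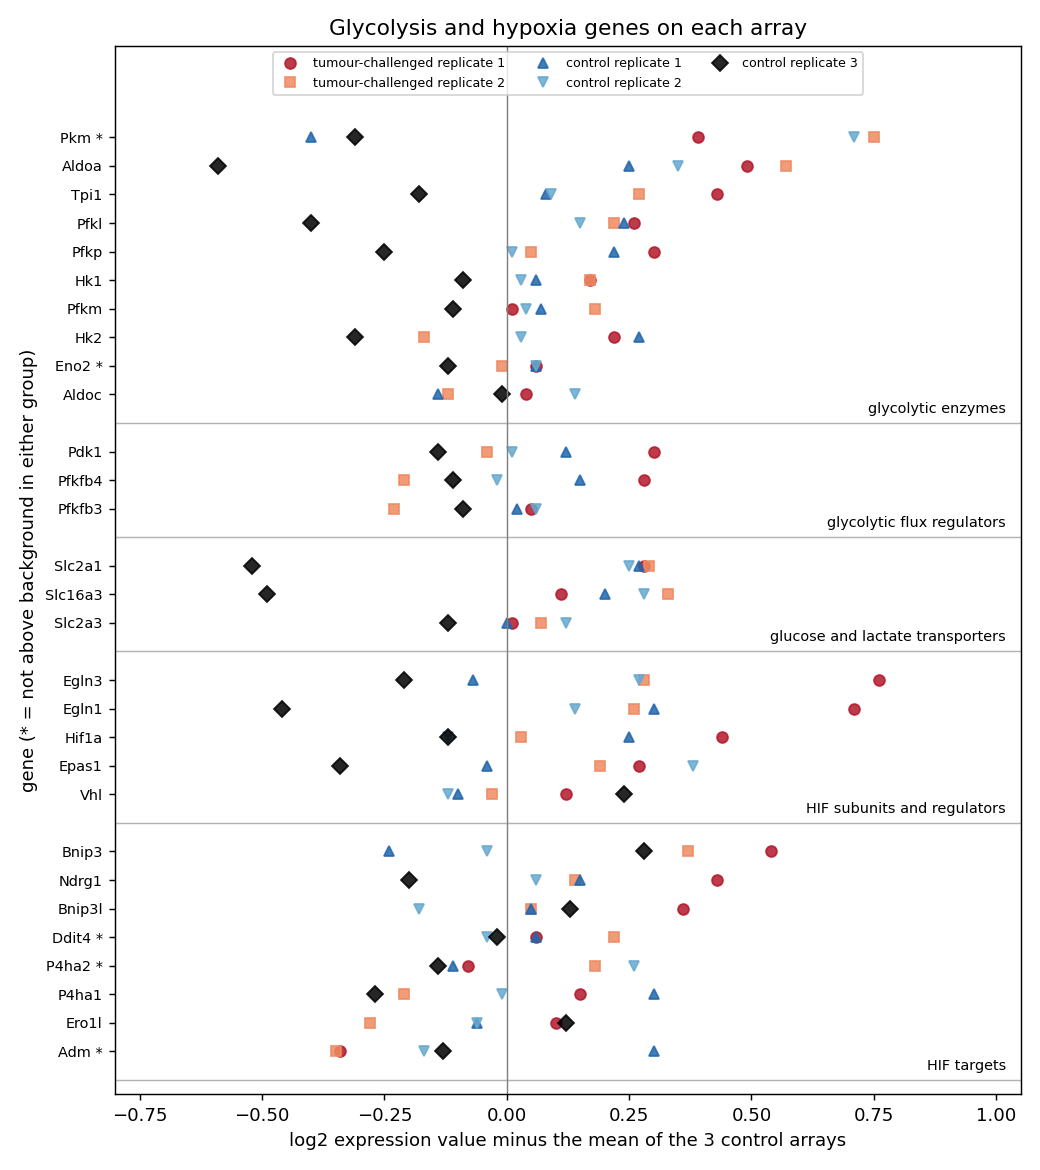
Each row is a gene and each symbol 1 array, plotted as its log2 expression value minus the mean of the 3 control arrays, with genes grouped by role. Control replicate 3 (black diamonds) lies lowest for 18 of the 29 genes, and the tumour-challenged arrays (red and orange) lie above all controls for 7.

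Of the transcripts that define the gate, that of CD11b was measured. Itgam, the gene for CD11b, averaged 10.96 ± 0.21 (SD, n = 2) on the tumour-challenged arrays and 10.77 ± 0.16 (SD, n = 3) on the control arrays, and all 10 measured markers of neutrophils and monocytes were above background. Ly6g, Ly6c1 and Ly6c2, genes of the Ly6 family that Gr1 antibodies bind, are not analysed here. Of 8 genes listed for neutrophil secondary granules, 7 were measured, without Ltb4r1. All 7 had a positive difference, from 0.09 for Chil3 to 2.12 for Ngp, with a median of 1.56 log2. Their summed linear level was 9689 to 13069 on the tumour-challenged arrays and 6420 to 6977 on the control arrays. B-cell markers (11 of 12 measured, all 11 negative) summed to 1700 to 1738 and 2156 to 2670. Platelet markers (7 of 9 measured, 5 positive, with Gp5 not above background) summed to 1291 to 2157 and 947 to 1262. Their median difference was 0.06 log2. Of the 7, 1 had tumour-challenged arrays above all controls, where 11.2% of all probe sets did. This was Ppbp, at 10.09 and 8.98 against 8.62, 8.74 and 8.23. Dendritic cell markers (11 of 12 measured, 7 negative, with Zbtb46 not above background) had overlapping sums, 2252 to 2987 and 2425 to 2783. Alveolar macrophage markers (9 of 12 measured, 6 negative and 3 positive) also had overlapping sums, 5525 to 7086 and 6279 to 6600. The largest part of these sums was Chil3, which is in the granule list too. It read 12.31 and 11.82 against 11.98, 11.98 and 11.95. For 4 macrophage markers the tumour-challenged arrays lay below all controls, where 7.83% of all probe sets did. These were Lpl (-0.83 ± 0.18), Mrc1 (-0.48 ± 0.09), Fabp4 (-0.41 ± 0.10) and Car4 (-0.13 ± 0.07, all SE). The part of these cells in the results below was not tested.

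Among the glycolytic enzymes, 9 of 10 measured had a positive difference, and that of Tpi1 had the smallest p. Tpi1, triose phosphate isomerase, read 9.43 and 9.27 on the tumour-challenged arrays and 9.08, 9.09 and 8.82 on the control arrays. Both tumour-challenged values lay above every control value, by 0.17 at the closest. The difference was 0.35 ± 0.12 (SE), a fold of 1.27, with an unadjusted p of 0.038 and an adjusted p of 0.727 (limma), and it was 0.26 without control replicate 3. It was the 1 gene of the 29 with an unadjusted p under 0.05.

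Aldoa, the aldolase isoform of most tissues, which splits fructose bisphosphate, had the largest difference among the enzymes above background, and its size came largely from control replicate 3. It read 12.48 and 12.56 after tumour challenge against 12.24, 12.34 and 11.40 in controls. The difference of 0.53 ± 0.32 (SE; adjusted p = 0.830 by limma) was 0.23 without the control array at 11.40. Aldoc, the brain-enriched aldolase, read 7.41 and 7.25 against 7.23, 7.51 and 7.36, so its arrays overlapped throughout, and the difference was -0.03 ± 0.11 (SE).

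The hexokinases, which trap glucose in the cell by phosphorylating it, were represented by Hk1 and Hk2. Hk1, the isoform present in most tissues, read 7.69 on both tumour-challenged arrays and 7.58, 7.55 and 7.43 on the control arrays. These groups did not overlap, and the difference was small, at 0.17 ± 0.07 (SE; adjusted p = 0.777 by limma). Hk2, the isoform induced by HIF and by insulin, read 8.59 and 8.20 against 8.64, 8.40 and 8.06, which is an overlap over nearly the whole range. Its difference was 0.03 ± 0.22 (SE), and it turned to -0.12 without control replicate 3 and to -0.06 after quantile normalization.

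Phosphofructokinase, the committed step of glycolysis, is assembled from the products of Pfkl, Pfkm and Pfkp, named for liver, muscle and platelet. None of the 3 had separate arrays. Their differences were 0.24 ± 0.22, 0.09 ± 0.09 and 0.18 ± 0.17 (SE), and 0.04, 0.03 and 0.06 without control replicate 3. In Pfkl that array read 6.69 where the other 4 arrays lay between 7.24 and 7.35.

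The probe set annotated to Pkm, pyruvate kinase of most non-liver tissues, gave the largest difference of all 29 and the least secure one. It read 5.99 and 6.35 after tumour challenge and 5.20, 6.31 and 5.29 in controls, all below the background level, with a difference of 0.57 ± 0.40 (SE; adjusted p = 0.843 by limma), or 0.37 to 0.92 with an array left out. Of the 20 probe sets nearest to it in number, 0 belong to genes on the chromosome of Pkm and all lie on 1 other chromosome, with Orc5 and Srpk2 on either side. For the other 28 genes at least 12 of 20 such neighbours shared the gene's chromosome. Whether this probe set reads the Pkm transcript was not tested. Without it, 23 of the remaining genes were positive with a median of 0.15. Eno2, the neuronal enolase, lay below background with a difference of 0.02 ± 0.08 (SE).

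Regulators of glycolytic flux showed no common direction. Pfkfb3 makes fructose 2,6-bisphosphate, the activator of phosphofructokinase, and read 8.81 and 8.53 against 8.78, 8.82 and 8.67. Pdk1, the kinase that shuts pyruvate out of mitochondria by inactivating pyruvate dehydrogenase, read 7.21 and 6.87 against 7.03, 6.92 and 6.77. In both genes the 2 tumour-challenged arrays spanned most of the control range, and the differences were -0.09 ± 0.11 and 0.13 ± 0.14 (SE). Without tumour-challenged replicate 1 that of Pdk1 was -0.04, and without tumour-challenged replicate 2 that of Pfkfb3 was 0.06. Pfkfb4, a paralog of Pfkfb3 with a similar activity, had a difference of 0.03 ± 0.18 (SE), which was -0.22 without tumour-challenged replicate 1.

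All 3 transporters had a positive difference with all 5 arrays, and for each of them control replicate 3 was the lowest array. Slc2a1, the glucose transporter GLUT1, read 9.14 and 9.15 after tumour challenge and 9.13, 9.11 and 8.34 in controls. The other 4 arrays thus lay within a very narrow band, and the groups were separate by 0.0099 log2 only. Its difference was 0.28 ± 0.28 (SE; adjusted p = 0.874 by limma) and 0.02 without control replicate 3. Slc16a3, the lactate exporter MCT4, read 9.42 and 9.64 against 9.51, 9.59 and 8.82, for a difference of 0.22 ± 0.28 (SE) that was -0.02 without control replicate 3. Slc2a3, the high-affinity glucose transporter GLUT3, read 9.94 and 10.00 against 9.93, 10.05 and 9.81. Its arrays were the closest together of the 3 transporters, with a difference of 0.04 ± 0.09 (SE), or -0.02 without control replicate 3 and -0.01 after quantile normalization.

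**Figure D2:**
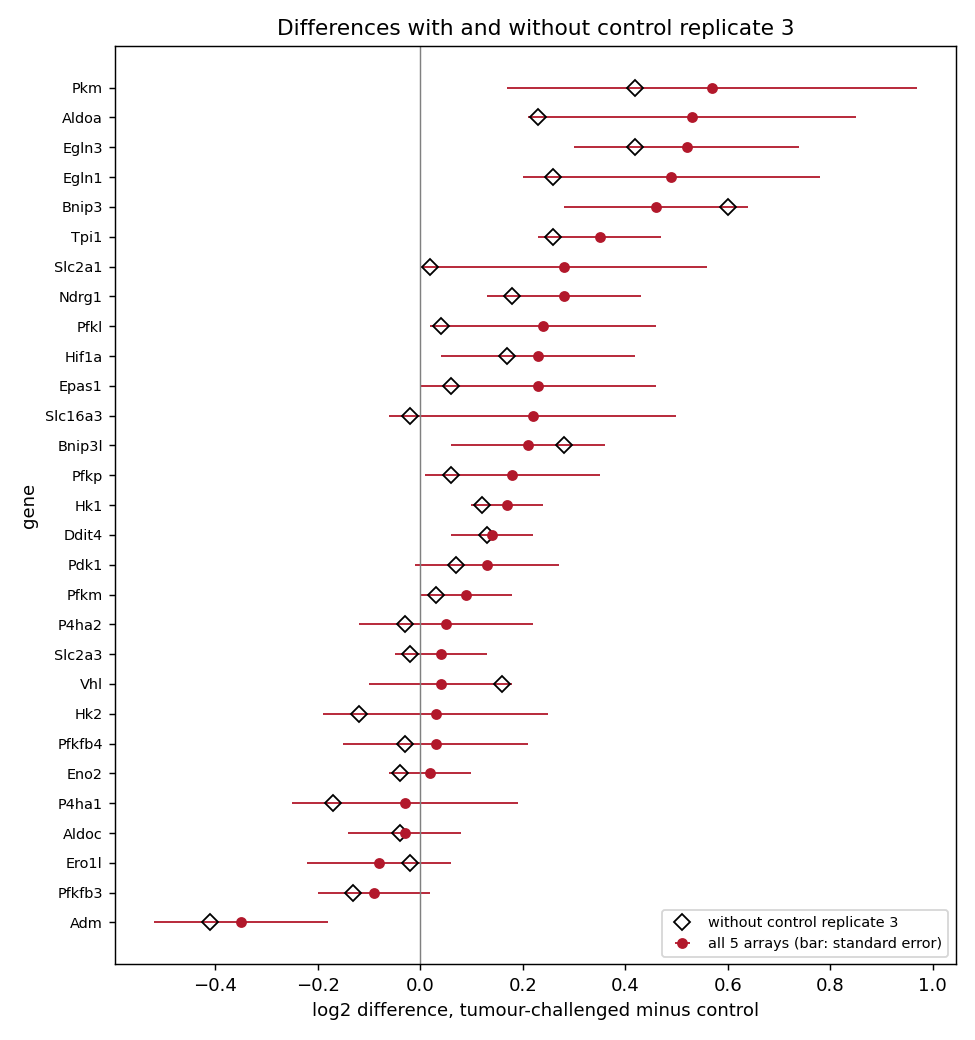
Log2 difference (tumour-challenged minus control) of the 29 genes, with all 5 arrays (red points, bars showing the standard error of the fit) and without control replicate 3 (open diamonds). Aldoa drops from 0.53 to 0.23 and Slc2a1 from 0.28 to 0.02, whereas Bnip3 moves from 0.46 to 0.60.

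The prolyl hydroxylases Egln1 and Egln3, themselves HIF targets, had the largest differences among HIF subunits and regulators. Egln3, the PHD3 enzyme, which sustains neutrophil survival in low oxygen in mice, read 7.93 and 7.45 against 7.10, 7.44 and 6.96. The groups were separate, but by 0.0069 log2 only, since tumour-challenged replicate 2 and control replicate 2 nearly coincided. The difference was 0.52 ± 0.22 (SE), a fold of 1.44, with an adjusted p of 0.786 (limma), and it was 0.28 without tumour-challenged replicate 1. Egln1, the PHD2 enzyme and main oxygen sensor of most cells, read 8.38 and 7.93 against 7.97, 7.81 and 7.21. Here the groups overlapped, and the difference of 0.49 ± 0.29 (SE; adjusted p = 0.826 by limma) was 0.26 without control replicate 3 and also 0.26 without tumour-challenged replicate 1.

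For Hif1a and Vhl the groups overlapped. Hif1a, the alpha subunit of HIF1, read 9.90 and 9.49 against 9.71, 9.34 and 9.34, with a difference of 0.23 ± 0.19 (SE; adjusted p = 0.854 by limma), which was 0.03 without tumour-challenged replicate 1. Vhl read 8.0 and 7.85 against 7.78, 7.76 and 8.12, so that control replicate 3 was here the highest array, and the difference was 0.04 ± 0.14 (SE). It was 0.16 without that array and -0.05 after quantile normalization.

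Epas1, which encodes HIF2 alpha and is known to be abundant in lung endothelium and alveolar epithelium, varied as much among controls as between the groups. It read 8.75 and 8.67 after tumour challenge and 8.44, 8.86 and 8.14 in controls, and control replicate 2 was the highest array. The difference was 0.23 ± 0.23 (SE; adjusted p = 0.873 by limma), and 0.06 without control replicate 3 or 0.42 without control replicate 2. The 11 measured lung epithelial markers of 13, all above background, also had their highest control median in replicate 2. Their medians against the control mean were 0.28 and 0.36 on the tumour-challenged arrays and -0.29, 0.28 and -0.04 on the control arrays. Single markers differed, and Scgb3a2 and Epcam were highest among controls in replicate 3, at 8.16 and 7.17. The summed linear level of the 11 markers was 8634 to 9204 after tumour challenge and 5166 to 9812 in controls. The 12 endothelial markers, also all above background, had medians of 0.02 and 0.01 against -0.04, 0.16 and -0.16, and summed to 2529 to 2530 and 2375 to 2775. The part of these cells in the Epas1 values was not tested.

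**Figure D3:**
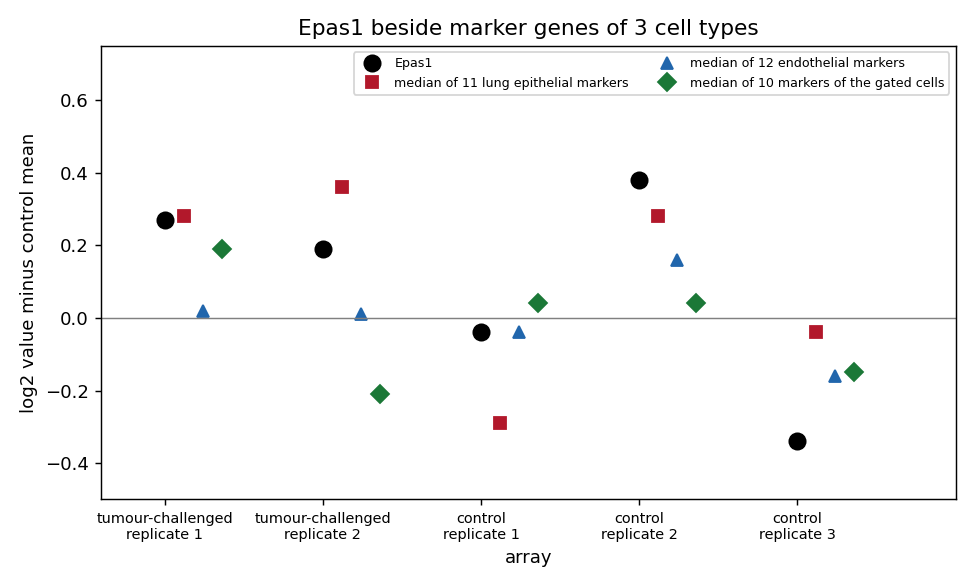
Epas1 (black) on each array, as log2 value minus the control mean, beside the median of the same quantity over markers of lung epithelium (red), endothelium (blue) and the gated cells (green). In controls Epas1 is highest in replicate 2, at 0.38 above the control mean, where the epithelial and endothelial medians are highest too (0.28 and 0.16).

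Among the HIF targets, Bnip3 had the largest difference, and it did not rest on control replicate 3. Bnip3, a mitochondrial protein that promotes mitophagy in low oxygen, read 9.42 and 9.25 after tumour challenge and 8.64, 8.84 and 9.16 in controls. The groups were separate, by 0.096 at the closest, and the nearest control was replicate 3. Its difference was 0.46 ± 0.18 (SE), a fold of 1.37, with an adjusted p of 0.759 (limma). It was 0.60 without control replicate 3, and between 0.34 and 0.54 without each of the other arrays in turn. Bnip3l, its paralog, which clears mitochondria from maturing red cells, had overlapping arrays and a difference of 0.21 ± 0.15 (SE), which was 0.05 without tumour-challenged replicate 1. A probe set annotated to both Zranb3 and Bnip3l, and so not used for the gene, differed by -0.23 ± 0.14 (SE). Which of these transcripts it reads was not tested.

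The other targets were split in direction. Ndrg1, a stress-induced gene of the N-myc downstream regulated family, had a difference of 0.28 ± 0.15 (SE), which was 0.18 without control replicate 3 and 0.14 without tumour-challenged replicate 1. Ero1l (Ero1a), an oxidase of the endoplasmic reticulum, read 9.23 and 8.85 against 9.07, 9.07 and 9.25, and P4ha1, a subunit of the collagen prolyl hydroxylase, read 9.56 and 9.20 against 9.71, 9.40 and 9.14. The P4ha1 values lay within the control range, while those of Ero1l overlapped it with tumour-challenged replicate 2 below every control. Their differences were -0.03 ± 0.22 and -0.08 ± 0.14 (SE). The remaining 3 targets were not above background in either group. Ddit4, an inhibitor of mTORC1, had separate groups only by 0.0013 log2, at 6.31 and 6.47 against 6.31, 6.21 and 6.23, with a difference of 0.14 ± 0.08 (SE), or 0.06 without tumour-challenged replicate 2. P4ha2 differed by 0.05 ± 0.17 (SE). Adm, the vasodilator peptide adrenomedullin, read 4.16 and 4.15 against 4.80, 4.33 and 4.37, near the lowest value of the arrays (4.09), so its difference of -0.35 ± 0.17 (SE; adjusted p = 0.810 by limma) compares values below background. It was -0.19 without control replicate 1.

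Red cells and their precursors also express Hk1 and Bnip3l, so erythroid markers were counted. Of 12 markers 7 were measured, all 7 had a positive difference, and limma called 0. The tumour-challenged arrays lay above all controls for 4 (Alas2, Slc4a1, Car2 and Rhag), where 11.2% of all probe sets did. The same 4 were higher at an unadjusted p under 0.05 (limma), against 3.58% of all probe sets. Epb42, Klf1 and Rhag, the last of these 1 of the 4, were not above background. Alas2 and Car2 were above it in the tumour-challenged group only, with control means of 6.46 and 6.39. The summed linear level of the 7 markers was 744 to 795 on the tumour-challenged arrays and 481 to 578 on the control arrays. The part of erythroid RNA in the values of the listed genes was not tested.

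Genes around the listed ones were counted in the same fit. Over all probe sets, 3.58% were higher and 2.96% lower there at an unadjusted p under 0.05 (limma). Of 38 further genes of glycolysis, glycogen, lactate and pyruvate, 29 were measured, 20 of them positive and 9 negative, with a median difference of 0.03 log2, and limma called 0 (4 higher and 0 lower at an unadjusted p under 0.05). Adpgk, an ADP-dependent glucokinase, differed by 0.69 ± 0.24 (SE), Ldhb, the heart-type lactate dehydrogenase subunit, by 0.59 ± 0.29, and Pygl, the liver-type glycogen phosphorylase, by 0.55 ± 0.20. Ldhb rested on tumour-challenged replicate 1, which read 8.95 where the other 4 arrays read 7.77 to 8.07, and its difference was 0.15 without that array. Adpgk was at 0.43 without the same array. At the other end, Slc16a7, the monocarboxylate transporter MCT2, differed by -0.24 ± 0.20 (SE) and Slc2a2, the glucose transporter GLUT2, by -0.23 ± 0.10. Gbe1, the glycogen branching enzyme, differed by -0.12 ± 0.17 (SE). Slc2a2 averaged 6.24 after tumour challenge and 6.48 in controls, beside the background level of 6.47. Of the 29 measured genes, 21 were above background in at least 1 group. Without tumour-challenged replicate 2 Slc16a7 was at 0.07 and Gbe1 at 0.13, and without tumour-challenged replicate 1 Slc2a2 was at -0.13.

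All 6 measured genes of the pentose phosphate pathway (of 8 listed), which supplies NADPH for the oxidative burst, had a positive difference, with a median of 0.28 log2, or 0.14 without control replicate 3 and 0.17 without tumour-challenged replicate 1. Limma called 0, and 1 was higher at an unadjusted p under 0.05. That gene was Taldo1, transaldolase, which read 11.87 and 11.65 after tumour challenge and 11.28, 11.28 and 11.14 in controls. Its groups lay 0.37 apart at the closest. The difference was 0.52 ± 0.10 (SE; adjusted p = 0.556 by limma), and it stayed between 0.41 and 0.63 without each array in turn. Pgd, 6-phosphogluconate dehydrogenase, and Tkt, transketolase, differed by 0.50 ± 0.39 and 0.36 ± 0.33 (SE), or 0.17 and 0.11 without control replicate 3, and 0.29 and 0.15 without tumour-challenged replicate 1.

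Further regulators of HIF (17 of 19 measured, 15 positive and 2 negative) had a median of 0.06 log2, and limma called 0, with 0 at an unadjusted p under 0.05. The largest differences were those of Rbx1, a subunit of the VHL ubiquitin ligase, at 0.26 ± 0.36 (SE), the ubiquilin gene Ubqln1 at 0.20 ± 0.20 and Hif1an, the asparaginyl hydroxylase FIH, at 0.17 ± 0.19. Sirt1, a deacetylase, differed by -0.28 ± 0.14 (SE), and Eloc, elongin C of the same ligase, by -0.02 ± 0.16. Rbx1 was at -0.24 without tumour-challenged replicate 1, which also put Ubqln1 at 0.02. Without tumour-challenged replicate 2 Hif1an was at -0.03, Sirt1 at -0.12 and Eloc at 0.20.

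A longer list of hypoxia-induced genes held more negative than positive differences. Of 42 genes 36 were measured, 14 of them positive and 22 negative, with a median of -0.05 log2. Only 28 of the 36 were above background in at least 1 group. Limma called 0, with 3 higher and 0 lower at an unadjusted p under 0.05. Upp1, uridine phosphorylase, read 8.23 and 8.28 after tumour challenge and 7.64, 7.40 and 7.45 in controls. These groups were 0.59 apart, the difference was 0.76 ± 0.09 (SE; adjusted p = 0.517 by limma), and it stayed between 0.71 and 0.83 without each array in turn. Ier3, an early response gene, differed by 0.63 ± 0.21 and Anxa2, annexin A2, by 0.37 ± 0.22 (SE), or 0.37 for Ier3 without tumour-challenged replicate 1 and 0.18 for Anxa2 without control replicate 3. Negative differences were led by Flt1, a VEGF receptor, at -0.42 ± 0.20 (SE), Cxcr4, which retains neutrophils in the marrow, at -0.38 ± 0.18, and Tfrc, the transferrin receptor, at -0.33 ± 0.22. These 3 rested on tumour-challenged replicate 2, the lower of the 2 arrays, and were -0.14, -0.10 and -0.01 without it.

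Subunits of the mitochondrial respiratory chain were set beside the glycolytic enzymes. Of 24 measured genes 23 had a positive difference, with a median of 0.30 log2, beside 9 of 10 and 0.17 for the enzymes. Array medians against the control mean were 0.48 and 0.10 on the tumour-challenged arrays and 0.22, 0.02 and -0.23 on the control arrays for the respiratory chain. They were 0.24 and 0.17, and 0.08, 0.08 and -0.21, for the enzymes. Control replicate 3 was thus the lowest array of both lists. Without it the medians were 0.21 and 0.05, and without tumour-challenged replicate 1 they were 0.10 and 0.17. Cyc1, cytochrome c1, had the largest difference of the chain, at 0.50 ± 0.21 (SE), followed by Ndufa9 at 0.47 ± 0.29 and Ndufv1 at 0.44 ± 0.31, both of complex I, while Cox7a2 of complex IV, not above background, differed by -0.06 ± 0.31. Without tumour-challenged replicate 1 Ndufa9 was at 0.25 and Ndufv1 at 0.09, and without control replicate 3 at 0.24 and 0.25. Cox7a2 was at 0.40 without tumour-challenged replicate 2. Limma called 0 of the 24, with 1 higher and 0 lower at an unadjusted p under 0.05. The difference between the 2 lists was not tested.

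**Figure D4:**
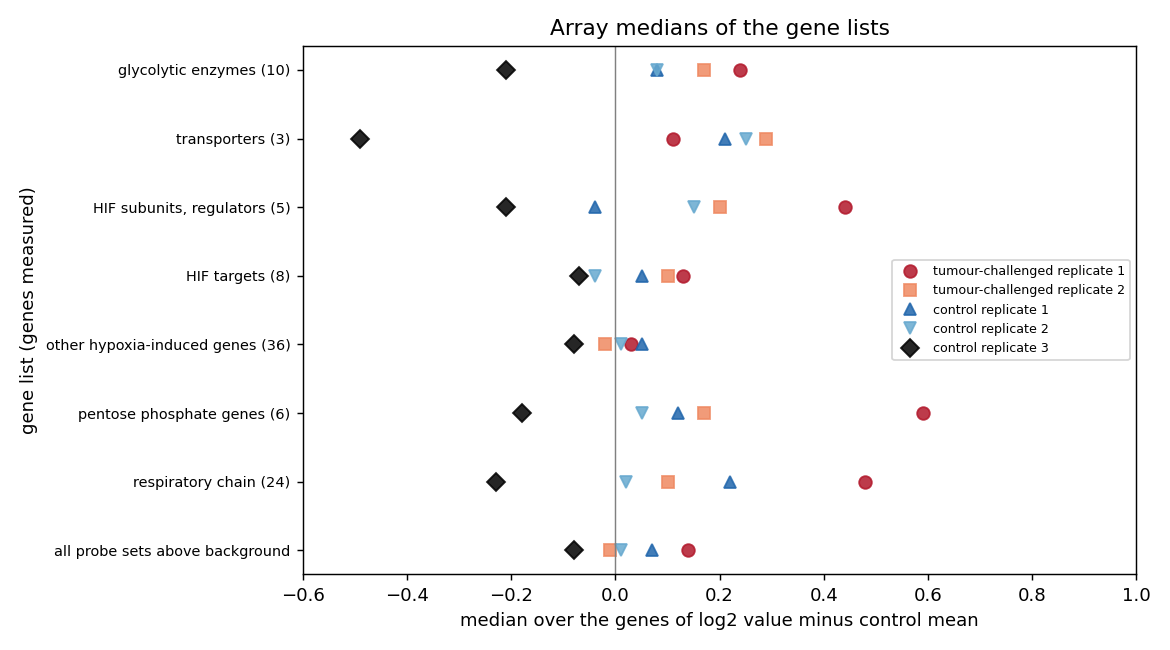
Median over the genes of a list of the log2 value minus the control mean, 1 symbol for each array. Control replicate 3 (black diamonds) is lowest in all 8 rows shown, at -0.49 for the transporters and -0.08 over all probe sets above background. The rows leave out the 3 flux regulators, where tumour-challenged replicate 2 is lowest, at -0.22. Tumour-challenged replicate 1 is highest in every row except the transporters and the other hypoxia-induced genes. It lies at 0.59 for pentose phosphate genes, 0.48 for respiratory chain genes and 0.14 over all probe sets above background.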

How the data were processed

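Expression was measured on 5 arrays. The deposited values are log2 expression values from RMA, as listed per the submitters' processing notes. Its version, its filters and the use of the named build, mm8, are not stated in the sources used here. Of 16661 probe sets, 14939 carry 1 gene symbol, and 19.6% hold equal values above the lowest value on several arrays. Symbols were updated through the gene number (14884 matched). A gene with several probe sets was represented by the brightest.

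Limma 3.58.1 (R 4.3.3) was fitted to all probe sets, tumour-challenged minus control, two-sided, without covariates. It was checked on simulated data. The number of arrays limits the precision. Background was the 90th percentile of the receptor probe sets. Every array value is given for genes with separate groups, the 5 largest differences each way and a list of central genes, as far as they had a probe set. From each further pathway list up to 3 genes each way are named. Members and lists were chosen with earlier results of these data known. Leaving out Pkm, or genes below background, was added after the data were seen. Alternatives covered normalization, filtering, variance model, probe sets, a replicate block and leaving out each array.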

Additional observations from a re-analysis of the deposited data

How the results depend on the processing

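None of the 29 genes was called under any alternative run. Over all probe sets, limma called 1 higher with each array centred on its median, and 0 higher and 0 lower under the others. The median difference ran from 0.06 to 0.26 and the number of positive genes from 18 to 27 when each array was left out in turn; after quantile normalization they were 0.10 and 20. The 7 genes whose tumour-challenged arrays lay above all controls became 9 to 15 with an array left out: 10 without tumour-challenged replicate 1, 15 without replicate 2, and 12, 11 and 9 without control replicates 1, 2 and 3. The shares of all probe sets were then 25.1%, 37.3%, 19.4%, 17.5% and 14.1%, since fewer arrays overlap less by construction. The 1 gene below all controls became 2 after quantile normalization, 0 without the dimmest 25% of probe sets, 0 among genes above background, and 1 to 4 with an array left out (4 without tumour-challenged replicate 1, where 25.5% of all probe sets were). The 75th percentile would put the background level at 5.80. The numbers of the replicates do not state a pairing. Same-numbered samples correlated in their deviations from the group means at 0.285 and 0.222, and the cross pairs of these replicates at -0.285 and -0.222. With 2 tumour-challenged arrays their deviations are equal and opposite. The values are thus linked by construction and cannot settle a pairing. With the replicate number as a block 0 probe sets were called (765 higher and 749 lower at an unadjusted p under 0.05, against 597 and 493 without it). Control replicate 3 has no partner, so the block gives the differences without it: a median of 0.06, 18 genes positive, and reversed signs for Hk2 (-0.12), Eno2 (-0.04), Pfkfb4 (-0.03), Slc2a3 (-0.02), Slc16a3 (-0.02) and P4ha2 (-0.03). Signs also reversed after quantile normalization for Hk2 (-0.06), Pfkfb4 (-0.06), Slc2a3 (-0.01) and Vhl (-0.05), and with centred arrays for Eno2 (-0.01), while Hk2 came to 0 within rounding, from below. With an array left out, the sign changed within -0.17 to 0.22 for Hk2, -0.04 to 0.06 for Eno2, -0.11 to 0.04 for Aldoc, -0.04 to 0.31 for Pdk1, -0.23 to 0.06 for Pfkfb3, -0.22 to 0.28 for Pfkfb4, -0.02 to 0.10 for Slc2a3, -0.02 to 0.36 for Slc16a3, -0.04 to 0.16 for Vhl, -0.28 to 0.11 for Ero1l, -0.21 to 0.15 for P4ha1 and -0.08 to 0.18 for P4ha2. The causes were not tested. The other 17 genes kept their sign under every alternative run. Signal near background limits Pkm, Eno2, Ddit4, P4ha2 and Adm, and 2 arrays against 3 limit all values.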

Other observations

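Promoters with the hypoxia response core were not limited to genes that read higher. Of the 25 measured genes with a RefSeq promoter, 22 held at least 1 core in the 250 bases before an annotated start, and 17 of those 22 had a positive difference, with a median of 0.15 log2. The 3 without a core, Eno2, Tpi1 and Vhl, all had a positive difference, with a median of 0.04. Adm held 2 cores and Pfkl held 1, and Hif1a held cores in its own promoter. With 3 genes on one side, no comparison was made.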
